A study of Mus musculus with 24 samples.

Results

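The genes described here are 35 genes of the cell cycle and of mitosis, measured by bulk RNA sequencing of whole liver from female mice. They were chosen by name: each is the row of the deposited count table that carries the gene's symbol, out of 55335 genes in the table. Of the 35, 29 had enough counts to be tested among 13281 genes, and 6 (Ccnb1, Foxm1, Plk1, Aurkb, Bub1 and Cdc20) did not. The livers came from 3xTg-AD mice, a model of Alzheimer's disease, and from wild-type mice labelled B6129SF2/J, called WT. 3xTg-AD mice carry a mutant presenilin-1 knock-in and human APP and tau transgenes driven by the Thy1 promoter, which is active in neurons; all 12 of the 3xTg-AD livers share these alleles and none of the 12 WT livers has them. Feeding with 1 of 3 diets started at an age of 3 months and lasted 6 months, and 4 livers were measured for each genotype and diet. The control diet (C) held 70% carbohydrate, 20% long-chain triglycerides and 10% protein. The ketogenic diet (KD, K in the group names) held 90% long-chain triglycerides and 10% protein and no carbohydrate, and in the MCT diet (M) carbohydrate stayed at 70% and protein at 10%, and medium-chain and long-chain triglycerides made up 10% each. Groups are called WT-C, WT-K, WT-M, 3xTg-C, 3xTg-K and 3xTg-M, and each replicate is a separate mouse. The labels do not say that the WT mice were littermates of the 3xTg-AD mice, so the transgenes and the rest of the genetic background cannot be told apart.

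Most cells of an adult liver are out of the cell cycle, and hepatocytes can re-enter it after tissue loss. A cell leaves rest when D-type cyclins and then cyclin E with Cdk2 inactivate the retinoblastoma protein and free E2F factors, which switch on the genes that license replication origins and supply nucleotides. Cyclin A, cyclin B and Cdk1 then drive entry into mitosis, where the kinases Plk1, Aurka and Aurkb, the spindle checkpoint proteins Bub1 and Bub1b, and motor and microtubule proteins such as Kif11, Tpx2 and Nusap1 separate the chromosomes. Genes of S phase are classically E2F targets, whereas genes of mitosis are classically controlled through a CHR element (cell cycle genes homology region) and CCAAT boxes.

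The members' promoters were searched for the letters of these elements, and 7 are printed as examples: 3 licensing genes with E2F letters, and 4 genes of mitosis with CHR letters whose levels are compared between the genotypes below. RefSeq promoters of GRCm38.p6, from 250 bases before to 50 bases after each gene start, were matched by symbol for 27 of the 35 members; the others were Foxm1, Ccnd1, Mcm4, Tpx2, Ccnd2, Ccne2, Aurkb and Ccna2. The E2F letters searched were TTTCCCGC, TTTGGCGC, TTTGCCGC and TTTCGCGC on both strands, where matches may overlap each other. They were found in 7 of the 27 matched members (Cdc6, Cdk1, Cdk2, Mcm3, Mcm5, Mcm6 and Mcm7), and in 2.26% of all 32851 promoters. By role these were 5 of the 6 matched genes of origin licensing, 1 of the 3 matched G1 genes, 1 of the 3 matched genes of mitotic entry (Cdk1) and 0 of the 4 genes of DNA synthesis and nucleotide supply. The table holds a second Mcm7 promoter, at chr5:138171217-138171516, with no E2F match. The CHR letters searched were TTTGAA and TTCGAA on both strands, the second being its own reverse complement, and they were found in 12 of the 27 members and in 19.2% of all promoters. By role these were 5 of the 6 matched mitotic kinase, checkpoint and exit genes, 3 of the 4 matched spindle and chromosome genes, 2 of the 3 matched genes of mitotic entry and 2 of the 6 licensing genes. The matched genes of the 3 mitotic roles without CHR letters were Birc5, Nusap1 and Ccnb1. Birc5 and Nusap1, which are also compared between the genotypes below, had no CCAAT letters either. The letters CCAAT were found in 20 of the 27 members and in 37.4% of all promoters. A match describes letters only and is not a site. Capitals mark the E2F letters in the promoters of 3 origin licensing genes, each written 5′ to 3′ on the gene's own strand: Mcm3 (minus strand, chr1:20820263-20820562), Mcm6 (minus strand, chr1:128359656-128359955) and Mcm7 (minus strand, chr5:138171834-138172133).
Mcm3: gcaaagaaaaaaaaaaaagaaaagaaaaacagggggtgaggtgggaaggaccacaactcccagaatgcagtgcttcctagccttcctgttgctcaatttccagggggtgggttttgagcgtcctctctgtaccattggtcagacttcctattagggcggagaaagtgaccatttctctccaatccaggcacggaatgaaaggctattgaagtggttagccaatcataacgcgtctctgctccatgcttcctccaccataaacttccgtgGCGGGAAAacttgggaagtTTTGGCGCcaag
Mcm6: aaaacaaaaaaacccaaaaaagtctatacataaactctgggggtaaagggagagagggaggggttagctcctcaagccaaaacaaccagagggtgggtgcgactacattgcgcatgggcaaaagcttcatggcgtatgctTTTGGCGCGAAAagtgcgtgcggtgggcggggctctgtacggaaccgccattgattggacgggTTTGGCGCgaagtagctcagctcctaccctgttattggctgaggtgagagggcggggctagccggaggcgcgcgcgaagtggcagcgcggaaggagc
Mcm7: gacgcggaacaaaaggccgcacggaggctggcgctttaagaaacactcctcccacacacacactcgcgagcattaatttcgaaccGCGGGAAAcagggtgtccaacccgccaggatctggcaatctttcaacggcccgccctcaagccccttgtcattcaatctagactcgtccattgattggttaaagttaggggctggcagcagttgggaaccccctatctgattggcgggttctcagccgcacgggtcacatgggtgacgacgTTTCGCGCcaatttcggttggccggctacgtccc
Capitals mark the CHR letters in the promoters of 4 genes of mitosis: Mki67 (minus strand, chr7:135716330-135716629), Bub1b (plus strand, chr2:118597961-118598260), Top2a (minus strand, chr11:99024140-99024439) and Cdk1 (minus strand, chr10:69352863-69353162).
Mki67: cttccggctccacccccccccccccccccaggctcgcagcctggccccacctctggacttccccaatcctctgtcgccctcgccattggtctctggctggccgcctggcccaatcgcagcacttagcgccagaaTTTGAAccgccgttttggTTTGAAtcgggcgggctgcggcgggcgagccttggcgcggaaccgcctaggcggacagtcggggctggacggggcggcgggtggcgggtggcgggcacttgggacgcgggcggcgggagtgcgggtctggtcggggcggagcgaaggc
Bub1b: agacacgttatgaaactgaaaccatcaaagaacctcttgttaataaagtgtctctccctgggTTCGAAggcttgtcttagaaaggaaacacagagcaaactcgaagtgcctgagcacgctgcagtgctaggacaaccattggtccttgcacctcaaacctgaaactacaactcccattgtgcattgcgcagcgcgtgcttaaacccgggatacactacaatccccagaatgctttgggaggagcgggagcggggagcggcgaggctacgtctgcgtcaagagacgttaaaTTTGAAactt
Top2a: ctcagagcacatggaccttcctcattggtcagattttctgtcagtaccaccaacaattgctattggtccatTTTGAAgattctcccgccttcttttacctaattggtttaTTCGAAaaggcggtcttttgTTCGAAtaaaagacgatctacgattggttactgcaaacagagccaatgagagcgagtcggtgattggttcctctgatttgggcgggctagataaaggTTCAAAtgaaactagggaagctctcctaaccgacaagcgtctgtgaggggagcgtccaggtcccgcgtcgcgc
Cdk1: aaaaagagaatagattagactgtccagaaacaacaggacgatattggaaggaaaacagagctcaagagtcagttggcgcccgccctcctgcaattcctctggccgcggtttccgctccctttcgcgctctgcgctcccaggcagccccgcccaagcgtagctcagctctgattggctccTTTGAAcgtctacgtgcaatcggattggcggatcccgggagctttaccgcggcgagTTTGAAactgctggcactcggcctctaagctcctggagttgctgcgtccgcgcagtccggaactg
The CHR letters occurred 4 times in the Top2a promoter and 2 times in each of the Mki67, Bub1b and Cdk1 promoters.

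The 24 libraries held 12009432 to 20108831 counts on genes. Hepatocyte markers such as Alb and Apoa1 gave the summed levels of liver in every library, between 83160.3 and 194916 CPM (counts scaled to the library's total by the trimmed mean of M values), and the 4 libraries of 3xTg-K lay at 83160.3, 107252, 83541 and 92631 CPM. In 6 libraries transcripts of exocrine pancreas summed to more than 100 CPM: WT-K replicates 1, 2 and 4, WT-M replicate 3, and 3xTg-M replicates 3 and 4. Neutrophil markers summed to 64.9, 145, 102 and 15.2 CPM in 3xTg-K, and in the other groups to at most 39.9 CPM. The nuclear RNA Neat1 stood at 19.6, 37.4 and 18.6 CPM in WT-C replicates 3 and 4 and WT-M replicate 1, and at no more than 14.3 CPM in the other libraries. In bulk tissue, fewer dividing cells and less RNA per dividing cell cannot be told apart. A member is said to have risen or fallen where edgeR's quasi-likelihood test gave a Benjamini-Hochberg adjusted p under 0.05 over all 13281 genes, and log2 differences are given with their standard error (SE).

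The most abundant member was Ccnd1. It encodes cyclin D1, the cyclin that links growth signals to G1 progression, and averaged 25.3 CPM per kb of exon over the 24 livers. The next members on that scale were Pcna at 3.98, Cdkn1a at 3.00, Ccnd2 at 2.70 and Mcm4 at 2.29 CPM per kb. Mki67, the gene of the proliferation antigen Ki-67, ranked 16 of 35 at 0.685, Top2a stood at 0.429, Cdk1 at 0.287 and Bub1, the lowest, at 0.0553 CPM per kb. Each of Mcm2 to Mcm7, Pcna, Rrm1, Rrm2 and Tyms stood above every gene of mitosis on this scale. Summed over the 35 members, the level was 348 ± 113 CPM in WT-C, 274 ± 48.6 in WT-K, 257 ± 91.8 in WT-M, 298 ± 59.2 in 3xTg-C, 280.0 ± 77.5 in 3xTg-K and 194 ± 43.4 in 3xTg-M (mean ± SD, n = 4 each). Ccnd1 made up 53.5% of that sum in WT-C and 26.7% in 3xTg-K, its highest and lowest share. Without Ccnd1, Ccnd2, Ccne1, Ccne2, Cdk2, E2f1 and Cdkn1a, the remaining 28 members summed to 140.4, 82, 119.7 and 144 CPM in the WT-C livers and to 57.1, 78, 82.7 and 104 in WT-K. The same sum was 103, 103, 144 and 139 CPM in 3xTg-C and 209, 106, 77.6 and 158 in 3xTg-K, so that the highest single liver was a 3xTg-K liver and the groups overlapped.

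Genotype was the comparison in which most members rose. Averaged over the 3 diets, 6 of the 29 tested members were higher in 3xTg-AD than in WT livers and none was lower with all libraries: Bub1b, Mki67, Nusap1, Tpx2, Ccne1 and Top2a. Of all genes tested, 9.19% changed in that comparison, and 4.72% were higher. The log2 difference was above 0 for 24 of the 29 members and for 50.4% of all genes, with a median of 0.36 over the members and 0.00 over all genes. By role, 4 of 5 genes of the spindle and chromosome structure rose, 1 of 3 tested kinase, checkpoint and exit genes, and 1 of 6 G1 cyclin, Cdk2 and E2f1 genes, while no gene of origin licensing, DNA synthesis or mitotic entry passed the test. Scaling by library size alone moved the median of all genes by 0.13 and the higher share of calls from 51.4% to 81.2%, and 11 members were then called. Bub1b, Nusap1, Tpx2 and Ccne1 reached the cutoff of the filter on low counts in too few WT livers to enter the test through these alone. Their entry therefore depended on the 3xTg-AD livers, in which they are high. In the fit with no filter, the same 6 members were called.

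Mki67 (ENSMUSG00000031004.8, chr7:135689784-135716361 in GRCm38) was the most abundant of the 6 genes by CPM per kb. The WT livers held 3.75, 3.04, 5.79 and 6.43 CPM on control diet, 2.37, 2.43, 5.24 and 2.73 on KD and 5.51, 5.26, 7.44 and 1.65 on MCT. The 3xTg-AD livers held 9.9, 13.9, 8.68 and 13.5 CPM on control diet, 11.5, 11.1, 7.34 and 5.66 on KD and 6.68, 15.7, 7.68 and 2.22 on MCT. On control diet and on KD every 3xTg-AD liver was above every WT liver, while on MCT the 2 genotypes overlapped and 3xTg-M replicate 4 was the lowest of the 3xTg-AD livers. The 12 WT livers averaged 4.3 ± 1.87 CPM and the 12 3xTg-AD livers 9.49 ± 3.87 CPM (mean ± SD), a log2 difference of 1.15 ± 0.26 (SE; adjusted p = 0.00496). Within a diet the difference was 1.27 ± 0.44 (SE; adjusted p = 0.177) on control diet, 1.47 ± 0.45 (SE; adjusted p = 0.0439) on KD and 0.70 ± 0.44 (SE; adjusted p = 0.649) on MCT.

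**Figure D1:**
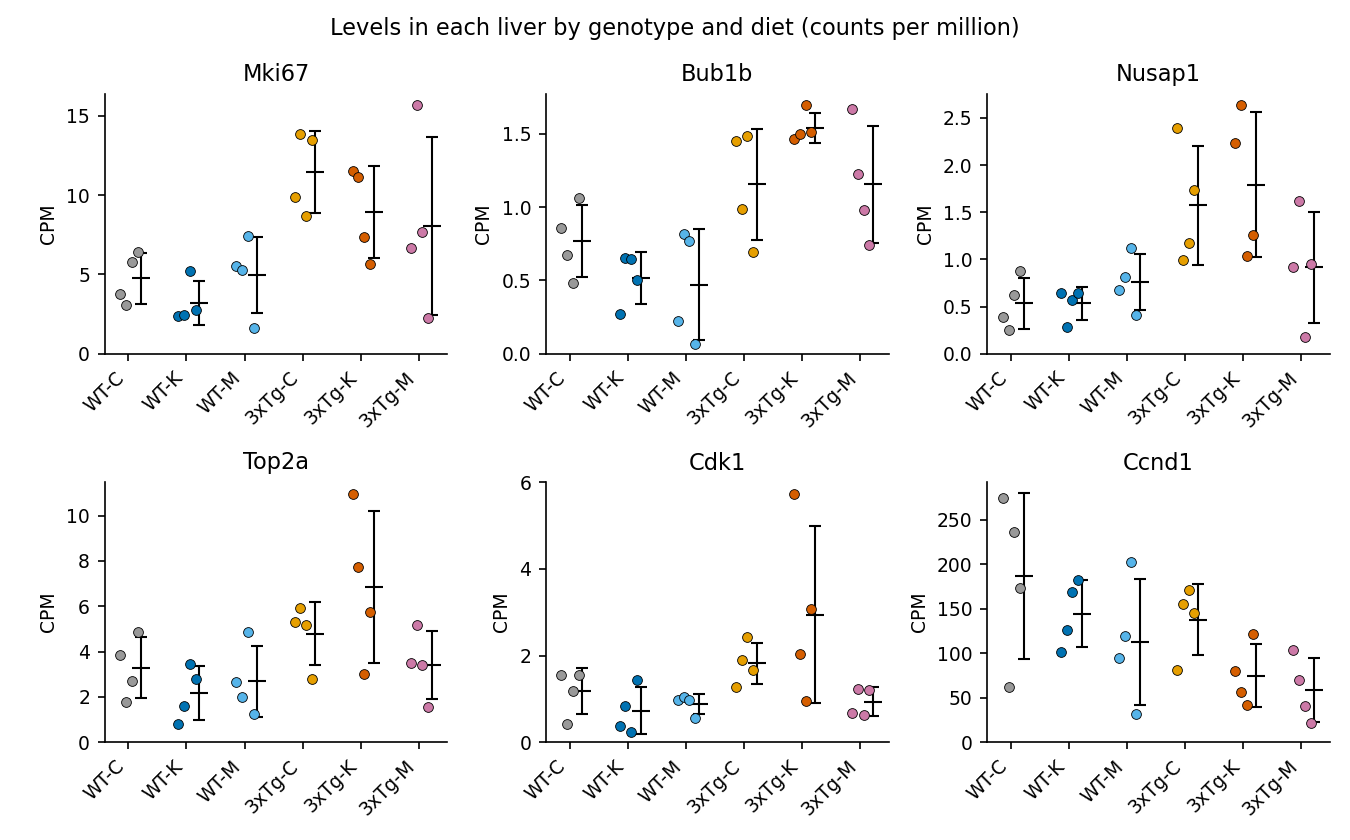
Levels of 6 members in each liver, in CPM on a linear axis, for the 6 groups of genotype and diet; each point is 1 liver and the bars are the group mean ± SD (n = 4). For Mki67 the 3xTg-C and 3xTg-K points sit above all WT points of the same diet, whereas the Ccnd1 points of the genotypes overlap.

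Nusap1 (ENSMUSG00000027306.15, chr2:119618298-119651244 in GRCm38) encodes a protein that bundles spindle microtubules near chromosomes. Its WT levels were 0.39, 0.253, 0.62 and 0.874 CPM on control diet, 0.639, 0.28, 0.564 and 0.647 on KD and 0.679, 0.815, 1.12 and 0.412 on MCT. Its 3xTg-AD levels were 2.39, 0.989, 1.17 and 1.74 CPM on control diet, 2.24, 2.64, 1.04 and 1.26 on KD and 0.919, 1.61, 0.179 and 0.952 on MCT. As for Mki67, the genotypes were fully separated on control diet and on KD, and overlapped on MCT. Nusap1 rose by 1.17 ± 0.27 (SE; adjusted p = 0.00732) on the log2 scale averaged over diets, with 1.5 ± 0.48 (SE; adjusted p = 0.124) on control diet and 0.31 ± 0.47 (SE; adjusted p = 0.906) on MCT, which did not pass the test. Its median count was 12 per library.

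Top2a encodes topoisomerase II alpha, which untangles sister chromatids. In WT it stood at 3.83, 1.77, 2.69 and 4.87 CPM on control diet, 0.822, 1.59, 3.47 and 2.8 on KD and 2.64, 2, 4.84 and 1.23 on MCT. In 3xTg-AD it stood at 5.29, 5.94, 5.16 and 2.78 CPM on control diet, 11, 7.73, 3.01 and 5.72 on KD and 3.51, 5.17, 3.4 and 1.53 on MCT. The highest value was that of 3xTg-K replicate 1, and the genotypes overlapped on each diet. Top2a rose by 0.84 ± 0.26 (SE; adjusted p = 0.0485) averaged over diets, but leaving out 1 library ended that call in 16 of 24 cases, with adjusted p up to 0.0945; it held without any 1 of WT-C replicate 4, WT-K replicates 3 and 4, WT-M replicate 3, 3xTg-C replicate 4, 3xTg-K replicates 3 and 4 and 3xTg-M replicate 4.

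Tpx2, whose protein activates Aurora A on the spindle, held 0.547, 0.253, 0.62 and 0.936 CPM on control diet, 0.548, 0.373, 0.806 and 0.719 on KD and 0.604, 0.889, 0.561 and 0.343 on MCT in WT livers. In 3xTg-AD livers it held 1.96, 1.52, 0.704 and 1.04 CPM on control diet, 1.82, 1.98, 0.753 and 1.38 on KD and 0.167, 1.16, 0.894 and 0.74 on MCT. The rise of 0.89 ± 0.26 (SE; adjusted p = 0.0347) was lost in 13 of 24 cases when 1 library was left out, with adjusted p up to 0.0768, and held without any 1 of WT-C replicate 4, WT-K replicates 3 and 4, WT-M replicates 1 and 2, 3xTg-C replicates 3 and 4, 3xTg-K replicates 3 and 4 and 3xTg-M replicates 1 and 4. The lowest of all 24 livers for Tpx2 was 3xTg-M replicate 1. Kif11, the motor that pushes spindle poles apart, was the spindle gene that did not pass, at 0.29 ± 0.18 (SE; adjusted p = 0.348). It held 1.09, 1.77, 0.964 and 1.44 CPM on control diet, 1.83, 1.59, 1.85 and 1.37 on KD and 1.59, 2.15, 2.03 and 0.961 on MCT in WT livers. In 3xTg-AD livers Kif11 held 2.05, 1.22, 1.41 and 1.18 CPM on control diet, 3.84, 2.52, 2.17 and 1.89 on KD and 1.42, 1.68, 2.86 and 1.27 on MCT, and on KD alone the 2 genotypes were fully separated. Summed over the 5 spindle and chromosome genes, the 12 WT livers averaged 9.77 ± 3.46 CPM and the 12 3xTg-AD livers 19.1 ± 6.67 CPM.

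Bub1b, the checkpoint gene that rose, had the smallest adjusted p of any member in the averaged genotype comparison. Bub1b (ENSMUSG00000040084.9, chr2:118598211-118641591 in GRCm38) encodes BubR1, which holds back the anaphase-promoting complex until chromosomes are attached. WT livers held 0.859, 0.675, 0.482 and 1.06 CPM on control diet, 0.274, 0.653, 0.645 and 0.503 on KD and 0.226, 0.815, 0.772 and 0.0686 on MCT. The 3xTg-AD livers held 1.45, 0.989, 1.49 and 0.695 CPM on control diet, 1.47, 1.5, 1.69 and 1.51 on KD and 1.67, 1.23, 0.983 and 0.74 on MCT. On KD all 4 livers of 3xTg-K lay between 1.47 and 1.69 CPM, above all 4 of WT-K. The log2 difference was 1.13 ± 0.25 (SE; adjusted p = 0.00457) averaged over diets, 0.56 ± 0.42 (SE; adjusted p = 0.67) on control diet, 1.56 ± 0.43 (SE; adjusted p = 0.0271) on KD and 1.27 ± 0.44 (SE; adjusted p = 0.211) on MCT. These are levels near 1 CPM, with a median of 11 counts per library. Bub1b, Mki67 and Nusap1 kept their calls when each of the 24 libraries was left out in turn, with adjusted p of at most 0.00999, 0.0112 and 0.0184. For Bub1b and Nusap1 this does not remove the dependence of their entry to the test on 3xTg-AD livers.

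Birc5, which encodes survivin, a subunit of the chromosomal passenger complex, held 0.312, 0.0844, 0.207 and 0.624 CPM on control diet, 0, 0.187, 0.242 and 0.144 on KD and 0.453, 0.519, 0.912 and 0.206 on MCT in WT. No read was counted in WT-K replicate 1, where 3 counts would be worth 0.274 CPM. In 3xTg-AD it held 0.768, 0.761, 0.313 and 0.486 CPM on control diet, 1.47, 0.839, 0.282 and 0.692 on KD and 0.418, 0.646, 0.179 and 0.264 on MCT. On KD the genotypes did not overlap, on control diet and MCT they did, and the log2 difference averaged over diets was 0.93 ± 0.36 (SE; adjusted p = 0.116). Aurka, the Aurora kinase of centrosomes, averaged 0.662 ± 0.337 CPM in WT and 0.808 ± 0.413 CPM in 3xTg-AD livers and did not pass at 0.22 ± 0.30 (SE; adjusted p = 0.736).

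The genes of mitotic entry stood higher in 3xTg-AD livers without passing the test averaged over diets. Cdk1, the kinase that triggers mitosis, held 1.56, 0.422, 1.17 and 1.56 CPM on control diet, 0.365, 0.84, 0.242 and 1.44 on KD and 0.981, 1.04, 0.982 and 0.549 on MCT in WT. In 3xTg-AD it held 1.28, 1.9, 2.42 and 1.67 CPM on control diet, 5.73, 2.04, 0.941 and 3.08 on KD and 0.668, 1.23, 0.625 and 1.22 on MCT, with its highest value in 3xTg-K replicate 1. The averaged log2 difference of Cdk1 was 0.90 ± 0.29 (SE; adjusted p = 0.0539). Ccna2, cyclin A2, partners Cdk2 in S phase and Cdk1 before mitosis, and held 0.39, 0.844, 0.895 and 0.811 CPM on control diet, 0.274, 0.187, 0.564 and 1.01 on KD and 1.28, 0.667, 1.75 and 0.137 on MCT in WT livers. In 3xTg-AD livers Ccna2 held 1.37, 1.6, 0.938 and 1.32 CPM on control diet, 1.75, 1.8, 1.22 and 1.32 on KD and 0.752, 1.74, 1.16 and 0.74 on MCT; on control diet and on KD each 3xTg-AD liver was above each WT liver. The averaged difference was 0.84 ± 0.28 (SE; adjusted p = 0.0626) for Ccna2 and 1.0 ± 0.45 (SE; adjusted p = 0.181) for Ccnb2, a B-type cyclin at 0.275 ± 0.289 CPM in WT and 0.625 ± 0.391 CPM in 3xTg-AD livers.

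Among the G1 genes 1 rose and the others did not change by the test. Ccne1, cyclin E1, which drives entry into S phase with Cdk2, held 0.859, 0.253, 0.895 and 0.25 CPM on control diet, 0.365, 0.187, 0.242 and 0.503 on KD and 0.226, 0.815, 0.912 and 0.137 on MCT in WT. In 3xTg-AD it held 1.54, 1.6, 1.8 and 0.486 CPM on control diet, 0.559, 0.479, 0.471 and 0.755 on KD and 1.5, 1.94, 0.625 and 0.74 on MCT. Ccne1 was higher in 3xTg-AD livers by 1.06 ± 0.32 (SE; adjusted p = 0.0365) with a median count of 9, and the call was lost in 12 of 24 cases when 1 library was left out, with adjusted p up to 0.0722. Those libraries were WT-C replicates 2 and 4, WT-K replicates 2 and 3, WT-M replicates 1 and 4, 3xTg-C replicates 1, 2 and 3, 3xTg-K replicate 4 and 3xTg-M replicates 1 and 2. Its level was 0.566 ± 0.132 CPM in 3xTg-K, below the 1.35 ± 0.59 of 3xTg-C and the 1.2 ± 0.627 of 3xTg-M (mean ± SD).

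Ccnd1 ran the other way. WT livers held 274, 61.7, 236 and 174 CPM on control diet, 101, 126, 168 and 183 on KD and 94, 119.7, 203 and 32.2 on MCT. The 3xTg-AD livers held 80.7, 155, 170.4 and 145 CPM on control diet, 79.9, 56, 42 and 122 on KD and 104, 70.0, 40.7 and 21.5 on MCT. The spread inside each group was wide, from 32.2 to 203 CPM in WT-M alone, and the genotypes overlapped on each diet. The averaged log2 difference of Ccnd1 was -0.77 ± 0.28 (SE; adjusted p = 0.09), which did not pass, and it was below 0 on each of the 3 diets. Ccnd1 was called lower in 3xTg-AD without WT-C replicate 2, without WT-M replicate 4, without 3xTg-M replicate 1, and with the clock covariate described with Cdkn1a. Ccnd2, the second D-type cyclin, averaged 24.9 ± 4.59 CPM in WT and 25.9 ± 6.57 CPM in 3xTg-AD livers, a log2 difference of 0.05 with a 95% interval of -0.17 to 0.27. Ccne2, the other cyclin E, differed by 0.14 ± 0.20 (SE; adjusted p = 0.75), Cdk2 by 0.36 ± 0.13 (SE; adjusted p = 0.0962) and E2f1 by 0.34 ± 0.29 (SE; adjusted p = 0.526).

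No gene of origin licensing or nucleotide supply passed the averaged genotype test. Mcm2 to Mcm7 form the helicase that is loaded at replication origins, with the help of Cdc6. Their averaged log2 differences ran from -0.48 for Mcm6 to 0.43 for Cdc6. Pcna, the sliding clamp of DNA polymerase, differed by -0.36 ± 0.17 (SE; adjusted p = 0.219), Rrm1, the large subunit of ribonucleotide reductase, by 0.33 ± 0.13 (SE; adjusted p = 0.12), and Tyms, thymidylate synthase, by 0.15 ± 0.10 (SE; adjusted p = 0.412). Rrm2 encodes the small subunit of ribonucleotide reductase, which limits the supply of deoxynucleotides. It held 2.58, 1.86, 1.72 and 2.37 CPM on control diet, 1.28, 1.21, 0.967 and 1.08 on KD and 1.43, 1.63, 4.49 and 1.78 on MCT in WT livers. In 3xTg-AD livers Rrm2 held 4.52, 3.88, 3.52 and 5.49 CPM on control diet, 3.91, 2.46, 1.32 and 2.08 on KD and 1.84, 2.2, 1.25 and 1.8 on MCT. On control diet the 4 livers of 3xTg-C were above all 4 of WT-C, and the log2 difference there was 1.03 ± 0.32 (SE; adjusted p = 0.118); averaged over diets it was 0.58 ± 0.19 (SE; adjusted p = 0.0628).

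**Figure D2:**
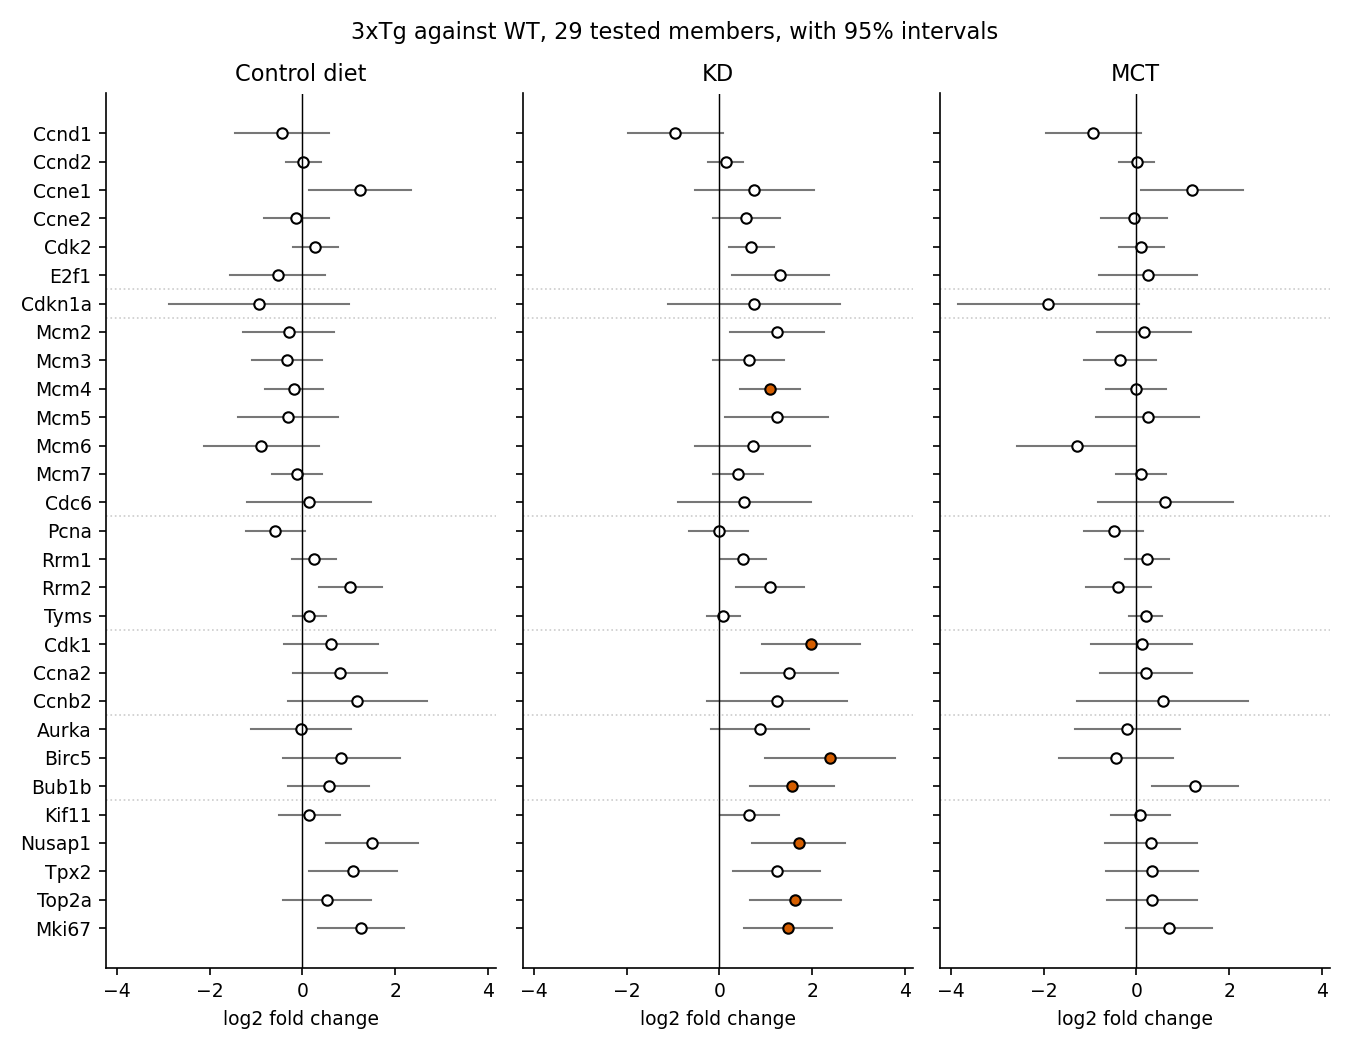
Log2 difference between 3xTg-AD and WT livers for the 29 tested members on control diet, KD and MCT, with 95% intervals; filled points passed the test (adjusted p under 0.05). Filled points occur in the KD panel only, where 27 of the 29 values are above 0.

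The genotype difference was tested within each diet. On KD 7 members rose in 3xTg-AD livers and none fell, against 8.49% of all genes changed and 4.27% higher: Cdk1, Bub1b, Birc5, Nusap1, Mcm4, Top2a and Mki67. Cdk1 was 3.93-fold higher, a log2 difference of 1.97 ± 0.50 (SE; adjusted p = 0.0175), and Birc5 5.23-fold, at 2.39 ± 0.66 (SE; adjusted p = 0.0273). Counts of Birc5 were 0, 2, 3 and 2 in WT-K and 21, 14, 6 and 11 in 3xTg-K. Birc5 passed the filter on low counts mostly through 3xTg-K livers. Its entry to the test therefore depended on the group in which it is high. The entry of Bub1b and Nusap1 also depended on 3xTg-AD livers, as given above. Nusap1 was 3.27-fold higher, at 1.71 ± 0.48 (SE; adjusted p = 0.0287), and Top2a 3.11-fold, at 1.64 ± 0.46 (SE; adjusted p = 0.0309). Mcm4, the one gene of S phase among the 7, was 2.12-fold higher, at 1.08 ± 0.31 (SE; adjusted p = 0.0301). Values were above 0 for 27 of the 29 and for 50.2% of all genes, with a median of 0.88 over the members. In 7 members (Mki67, Nusap1, Bub1b, Birc5, Ccna2, Kif11 and Rrm2) the 4 livers of 3xTg-K were all above the 4 of WT-K; 13.7% of all genes had groups that did not overlap. On control diet no member passed (1.86% of all genes did), 17 of 29 values were above 0 (49.8% of all genes) and the median was 0.15; in 4 members (Mki67, Nusap1, Ccna2 and Rrm2) the groups did not overlap, as in 8.67% of all genes. On MCT none passed either (1.74% of all genes did), with 19 of 29 above 0 (51.5% of all genes) and a median of 0.11. Scaling by library size alone moved the median of all genes on KD by 0.43 and the share of calls that were higher from 50.3% to 95.6%; 19 members were then called, all higher. At an unadjusted p under 0.05 there were 5 members on control diet (11.9% of all genes) and 3 on MCT (10.9% of all genes). DESeq2 called none of the members on these 2 diets, among 385 genes called on control diet and 309 on MCT. The change of the genotype difference from control diet to KD, or to MCT, is the same quantity as the difference of the diet responses between genotypes, and no member passed that test for either diet.

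The number of calls on KD changed when single livers were left out. Without 3xTg-K replicate 1, only Bub1b of the 29 members was called on KD. Without WT-K replicate 1 these were 2 (Nusap1 and Cdk1), and without WT-K replicate 2 also 2 (Cdk1 and Bub1b). Without WT-K replicate 3 they were 3 (Top2a, Mki67 and Birc5), and without 3xTg-K replicate 2 also 3 (Cdk1, Mcm4 and Cdk2). Without WT-K replicate 4 there were 9, of which 4 were among the 7. Without the 6 libraries that held pancreas transcripts, which leaves 1 liver of WT-K assumed to vary like the other groups, no member was called on KD, and the log2 difference was 3.51 for Cdk1 and 0.76 for Mki67. Averaged over diets, 4 members were then called: Mki67 (1.15, adjusted p = 0.0252), Nusap1 (1.37, adjusted p = 0.0309), Bub1b (1.24, adjusted p = 0.0327) and Rrm2, which was not called with all libraries.

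The summed levels of markers of other cell types are set beside the genotype difference, without a test. Erythroid markers (11 of 12 listed found, none at 0 in all livers) summed to 229.7 to 519.6 CPM in the 12 WT livers and to 247 to 927 in the 12 3xTg-AD livers, with medians of 336 and 516. Kupffer cell and macrophage markers (18 of 18, none at 0 in all livers) summed to 598 to 914 CPM in WT and 609 to 1509 in 3xTg-AD. B and plasma cell markers (12 of 12) had medians of 46.4 and 80.2 CPM and neutrophil markers (13 of 13) of 12.2 and 22.4. Medians in WT and 3xTg-AD livers were 613 and 602 CPM for stellate and fibroblast markers and 44.4 and 41.4 for cholangiocyte markers. For endothelial markers they were 602 and 641 CPM, and for T and NK cell markers 7.65 and 9.43. All of these ranges overlapped. On KD alone, neutrophil markers summed to 20.1, 6.25, 11.3 and 39.4 CPM in WT-K and 64.9, 145, 102 and 15.2 in 3xTg-K. Kupffer cell and macrophage markers summed to 714, 609, 625 and 722 CPM in WT-K and 1010.5, 1337, 1067 and 812 in 3xTg-K, and these 2 groups did not overlap. B and plasma cell markers summed to 26.3, 58.3, 42.2 and 39.5 CPM in WT-K and 43.2, 39.7, 21.6 and 80.8 in 3xTg-K, which overlapped. Hepatocyte markers averaged 148047 CPM in WT-K and 91646 in 3xTg-K. Without 3xTg-K replicates 2 and 3, the libraries with the most neutrophil transcripts, 3 members were called on KD (Cdk1, Mcm4 and Rrm1). The nuclear RNAs Neat1 and Xist, chosen after seeing the data, stood higher in 3xTg-K than in WT-K. Neat1 held 7.76, 6.72, 4.11 and 4.96 CPM in WT-K and 10.8, 8.81, 14.3 and 11 in 3xTg-K. Xist held 199, 151, 157 and 218 CPM in WT-K and 283, 221, 366 and 297 in 3xTg-K. Neither overlapped, as in 13.7% of all genes on KD. On control diet both overlapped, and Neat1 held 7.65, 4.39, 19.6 and 37.4 CPM in WT-C and 5.55, 5.02, 5.78 and 5.97 in 3xTg-C. The part of these 2 RNAs in the 7 calls on KD was not tested. No gene of the cell type lists was at 0 in all livers, and the part of these cell types in the genotype difference of the members was not tested.

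KD compared with control diet changed no member within either genotype. In WT livers 0 of 29 passed, where 0.648% of all genes did; 6 members had an unadjusted p under 0.05 (12.3% of all genes), and 25 of 29 values were below 0 with a median of -0.56 (50% of all genes were below 0). In 3xTg-AD livers 0 of 29 passed, where 5.39% of all genes did; 5 members had an unadjusted p under 0.05 (18.7% of all genes), and 20 of 29 values were above 0 with a median of 0.28 (51.6% of all genes were above 0). DESeq2 called no member in either genotype, among 266 genes called in WT and 979 in 3xTg-AD. With library size alone as the scaling, which moved the median of all genes by 0.31 in 3xTg-AD, 3 members were called there (Ccnd2, Kif11 and Cdkn1a) and none in WT. That scaling moved the higher share of all calls from 52.8% to 93.7% in 3xTg-AD and from 55.8% to 29% in WT. The 2 comparisons use separate livers.

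The licensing genes and the tested kinase, checkpoint and exit genes lay mostly on opposite sides of 0 in the 2 genotypes. The latter were 3 of 3 below 0 in WT and 3 of 3 above 0 in 3xTg-AD. All 7 licensing genes were below 0 on KD in WT, with a median of -0.95, and 5 of 7 were above 0 in 3xTg-AD, with a median of 0.31. Mcm4 held 15.1, 4.98, 12.2 and 10.5 CPM on control diet, 4.84, 5.6, 3.95 and 7.62 on KD and 6.04, 5.41, 8.56 and 4.12 on MCT in WT. In 3xTg-AD it held 8.28, 7.08, 11.4 and 11 CPM on control diet, 14.6, 9.05, 7.01 and 16.2 on KD and 5.18, 7.49, 5.99 and 5.23 on MCT. Its KD difference was -0.96 ± 0.31 (SE; adjusted p = 0.154) in WT and 0.31 ± 0.30 (SE; adjusted p = 0.642) in 3xTg-AD, and the test of the difference between these responses gave 1.27 ± 0.43 (SE; adjusted p = 0.171). Mcm2 held 10.1, 1.94, 9.16 and 9.11 CPM on control diet, 1.92, 2.33, 2.42 and 7.62 on KD and 4.3, 2.59, 4.7 and 2.74 on MCT in WT. In 3xTg-AD it held 3.41, 3.65, 7.82 and 9.72 CPM on control diet, 12, 5.69, 3.86 and 12.7 on KD and 4.18, 4.01, 4.11 and 3.7 on MCT. The Mcm2 responses were -1.07 ± 0.48 (SE; adjusted p = 0.363) and 0.47 ± 0.46 (SE; adjusted p = 0.655), with a difference of 1.54 ± 0.67 (SE; adjusted p = 0.281). For Mcm3 the responses were -0.77 ± 0.37 (SE; adjusted p = 0.392) in WT and 0.19 ± 0.36 (SE; adjusted p = 0.843) in 3xTg-AD, and for Mcm7 -0.53 ± 0.26 (SE; adjusted p = 0.41) and -0.02 ± 0.25 (SE; adjusted p = 0.983).

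In several groups, individual livers moved together across the licensing genes. WT-C replicate 2 was the lowest of its group for each of Mcm2 to Mcm7, and WT-K replicate 4 was the highest of its group for 5 of these 6 genes. In 3xTg-K, replicates 1 and 4 shared all the highest values (3 genes each), and replicate 3 was the lowest for 5 of 6. In 3xTg-M the livers did not move together in this way, and replicate 4 was the highest for 3 of the 6 genes and the lowest for 2. Mcm5 held 9.92, 4.05, 9.16 and 12.2 CPM on control diet, 2.01, 2.99, 2.34 and 8.41 on KD and 5.21, 2.59, 5.33 and 1.92 on MCT in WT. In 3xTg-AD Mcm5 held 3.5, 5.33, 10.4 and 9.38 CPM on control diet, 17.1, 4.19, 3.44 and 12.7 on KD and 3.34, 4.46, 2.77 and 7.08 on MCT. Mcm6 held 20.7, 11.8, 14.8 and 20.3 CPM on control diet, 4.02, 7.65, 8.06 and 15.2 on KD and 10.3, 9.71, 13 and 4.32 on MCT in WT livers. In 3xTg-AD livers Mcm6 held 4.78, 4.26, 15.9 and 11.7 CPM on control diet, 32.6, 4.79, 2.07 and 18.4 on KD and 3.92, 4.52, 1.43 and 5.23 on MCT, a range of 2.07 to 32.6 CPM within 3xTg-K. The spread inside 3xTg-K was therefore wider than the difference between the group means, which were 9.16 ± 5.62 CPM in 3xTg-C and 14.5 ± 14.1 CPM in 3xTg-K (mean ± SD).

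**Figure D3:**
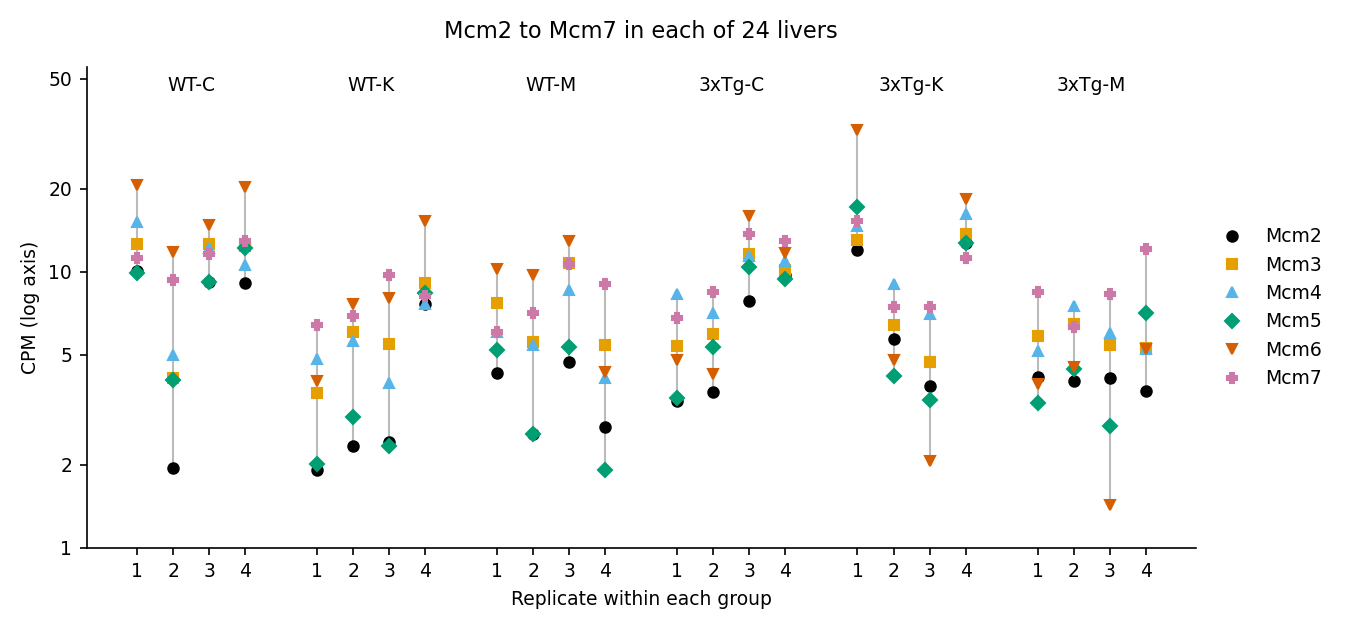
Levels of Mcm2 to Mcm7 in each liver in CPM, on a log axis, by group of genotype and diet; each column of points is 1 liver, with a grey line from its lowest to its highest gene. WT-C replicate 2 lies lowest of its group in all 6 genes, and the 3xTg-K livers spread most for Mcm6, from 2.07 to 32.6 CPM.

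No member passed the test of the difference between the KD responses, in which 1 gene of all passed (0.00753%). The difference was above 0 for 26 of 29 members and 50.9% of all genes, with a median of 0.57 over the members. At an unadjusted p under 0.05 there were 4 members (14.6% of all genes), and Mcm4 was called with library size alone as the scaling, which moved the median of all genes by 0.45. DESeq2 called 253 genes and 0 members. E2f1, the founding E2F factor, held 1.41, 0.591, 2.14 and 2.62 CPM on control diet, 0.548, 0.28, 0.484 and 1.94 on KD and 1.06, 0.593, 1.82 and 0.48 on MCT in WT. In 3xTg-AD E2f1 held 1.2, 0.989, 0.86 and 1.67 CPM on control diet, 2.31, 1.8, 1.51 and 2.83 on KD and 0.668, 1.03, 1.07 and 1.85 on MCT. Its responses were -1.02 ± 0.51 (SE; adjusted p = 0.427) in WT and 0.82 ± 0.48 (SE; adjusted p = 0.373) in 3xTg-AD, and the difference between them was 1.84 ± 0.69 (SE; adjusted p = 0.215). The genotype difference on KD shares livers with each of these comparisons.

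**Figure D4:**
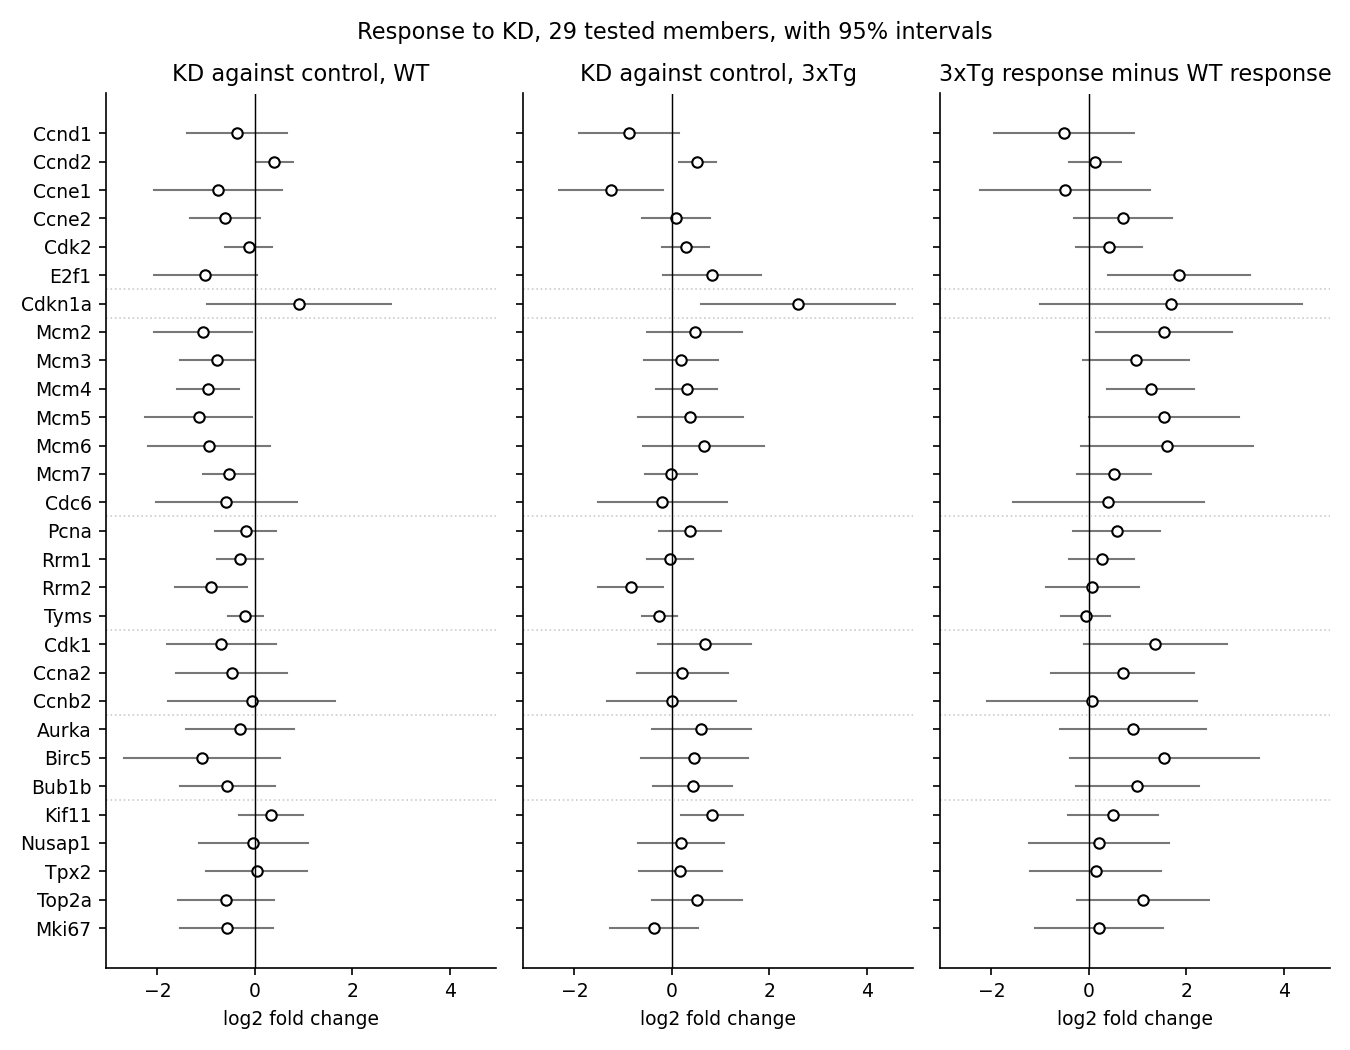
Log2 difference between KD and control diet in WT livers, in 3xTg-AD livers, and the difference between these 2 responses, for the 29 tested members, with 95% intervals. In WT 25 of 29 values lie below 0 and in 3xTg-AD 20 of 29 lie above 0; none passed the test.

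Averaged over the genotypes, KD changed 2 members, where 3.61% of all genes changed. Rrm2 fell by 0.88 ± 0.24 on the log2 scale (adjusted p = 0.0384), from the levels given above, with -0.91 in WT and -0.85 in 3xTg-AD. In WT the 4 livers on KD were all below the 4 on control diet for Rrm2; 7.24% of all genes had groups that did not overlap there. Ccnd2 rose by 0.46 ± 0.13 (SE; adjusted p = 0.0452), with 0.40 ± 0.18 (SE; adjusted p = 0.37) in WT and 0.52 ± 0.18 (SE; adjusted p = 0.0998) in 3xTg-AD. WT livers held Ccnd2 at 22.6, 18.2, 24.5 and 16.7 CPM on control diet, 21.6, 31.6, 27.3 and 27.6 on KD and 27.6, 29, 29.2 and 23.2 on MCT. The 3xTg-AD livers held it at 20.0, 21.1, 22.7 and 19.2 CPM on control diet, 20.1, 37.8, 37.2 and 23.9 on KD and 30.4, 30.7, 25.7 and 22.4 on MCT. Each call was lost in 12 of 16 cases when 1 library was left out, with adjusted p up to 0.0841 for Rrm2 and 0.117 for Ccnd2. Rrm2 kept its call without any 1 of WT-C replicates 2 and 3, 3xTg-C replicate 3 and 3xTg-K replicate 1, and Ccnd2 without any 1 of WT-C replicate 3, WT-K replicate 1 and 3xTg-K replicates 1 and 4. With library size alone, Ccnd2 was the one member called, and the higher share of all calls went from 53.2% to 74.4%. Ccne1 had the lowest value of the 29 averaged over genotypes, -1.0 ± 0.40 (SE; adjusted p = 0.193), and did not pass.

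MCT was compared with the same control livers as KD. It changed no member, and no gene of all passed in WT or in 3xTg-AD livers (0% each) by edgeR. At an unadjusted p under 0.05 there were 803 genes in WT (6.05%) and 855 in 3xTg-AD (6.44%), with 4 members in each, and DESeq2 called 18 and 24 genes. Averaged over genotypes 0.128% of all genes passed and no member did. Values were below 0 for 19 of 29 members in WT (48.6% of all genes) and for 25 of 29 in 3xTg-AD (46.4% of all genes). All 7 licensing genes were below 0 in both genotypes, with Mcm4 at -0.83 ± 0.30 (SE; adjusted p = 0.741) in WT, Mcm5 at -1.23 ± 0.52 (SE; adjusted p = 0.786) in WT, and Mcm4 at -0.74 ± 0.21 (SE; adjusted p = 0.189) averaged. Rrm2 was at -1.29 ± 0.33 (SE; adjusted p = 0.452) in 3xTg-AD, where all 4 livers on MCT were below the 4 on control diet (as also for Cdk1; 3.32% of all genes had groups that did not overlap), and at 0.13 ± 0.33 (SE; adjusted p = 0.99) in WT; the difference of these responses was -1.42 ± 0.46 (SE; adjusted p = 1). Ccnd1 was at -1.22 ± 0.49 (SE; adjusted p = 0.686) in 3xTg-AD and -0.73 ± 0.49 (SE; adjusted p = 0.897) in WT, and Ccnd2 at 0.40 ± 0.18 (SE; adjusted p = 0.771) and 0.41 ± 0.18 (SE; adjusted p = 0.81). No member and no gene of all passed the test of the difference between the MCT responses, with 1 member and 287 genes (2.16%) at an unadjusted p under 0.05.

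KD compared with MCT changed 1 member. In 3xTg-AD livers Cdk1 rose by 1.60 ± 0.48 (SE; adjusted p = 0.0412), 3.02-fold, where 8.02% of all genes changed. Values were above 0 for 27 of 29 members (49.1% of all genes) with a median of 0.54, including all 7 licensing genes. Mcm4 stood at 0.97 ± 0.30 (SE; adjusted p = 0.0504) and Mcm6 at 1.92 ± 0.62 (SE; adjusted p = 0.0566), both just outside the threshold. The Cdk1 call was lost in 7 of 8 cases when 1 library was left out, with adjusted p up to 0.194, and held without 3xTg-K replicate 3. With library size alone as the scaling, 16 members were called in this comparison, the median of all genes moved by 0.43, and the higher share of all calls went from 44.8% to 95.6%. In WT livers no member passed (0.181% of all genes did); Rrm2 was at -1.04 ± 0.35 (SE; adjusted p = 0.349), Birc5 at -1.78 ± 0.71 (SE; adjusted p = 0.54) and Ccna2 at -0.85 ± 0.52 (SE; adjusted p = 0.849).

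Cdkn1a, the gene of the CDK inhibitor p21 and a classical p53 target, had the widest spread of the tested members, with a highest liver 51.8 times the lowest. WT livers held 2.19, 19.7, 1.65 and 4.62 CPM on control diet, 28.1, 9.05, 12.7 and 2.66 on KD and 1.13, 4.74, 14.9 and 36.8 on MCT. The 3xTg-AD livers held 3.07, 1.07, 2.03 and 8.34 CPM on control diet, 35.9, 18.8, 28.5 and 4.97 on KD and 2.84, 0.711, 3.48 and 8.25 on MCT. Values above 10 CPM occurred in all groups but 3xTg-C and 3xTg-M, and in 3xTg-K 3 of the 4 livers were above all of 3xTg-C and 3xTg-M. The KD difference was 2.59 ± 0.95 (SE; adjusted p = 0.119) in 3xTg-AD, 0.91 ± 0.90 (SE; adjusted p = 0.74) in WT and 1.75 ± 0.65 (SE; adjusted p = 0.151) averaged, none of which passed.

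Cdkn1a was set beside circadian clock genes from liver to liver. Nr1d1 and Dbp, which are most abundant in the light phase, and Arntl, which peaks in the opposite phase, were chosen for this after values had been seen, so the relations are a description and no p is given. Nr1d1 held 17.5, 1.01, 15.6 and 3.99 CPM on control diet, 1.55, 9.61, 7.58 and 24.5 on KD and 16.2, 6.89, 4.49 and 1.85 on MCT in WT livers. In 3xTg-AD livers Nr1d1 held 16.4, 28.8, 11.9 and 4.79 CPM on control diet, 3.63, 3.42, 1.65 and 16.6 on KD and 17.8, 41.3, 18.6 and 5.02 on MCT. The 3 livers highest for Cdkn1a, WT-M replicate 4, 3xTg-K replicate 1 and 3xTg-K replicate 3, had 1.85, 3.63 and 1.65 CPM of Nr1d1. Across the 24 livers, on log2(CPM + 0.5) with group means removed, Cdkn1a and Nr1d1 had a Pearson r of -0.932 and a Spearman rho of -0.907. For Dbp r was -0.875 and rho -0.873, and for Arntl r was 0.791 and rho 0.849. Without the 2 livers farthest from the median of the clock gene, r was -0.921, -0.850 and 0.760. With a score of the 3 clock genes as covariate, an alternative chosen after seeing the data, the KD difference of Cdkn1a was 1.81 in 3xTg-AD and 1.70 averaged. No p is given for these either, because the clock genes were set beside Cdkn1a in the same livers. The hour at which livers were taken is not given in the sources used here.

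**Figure D5:**
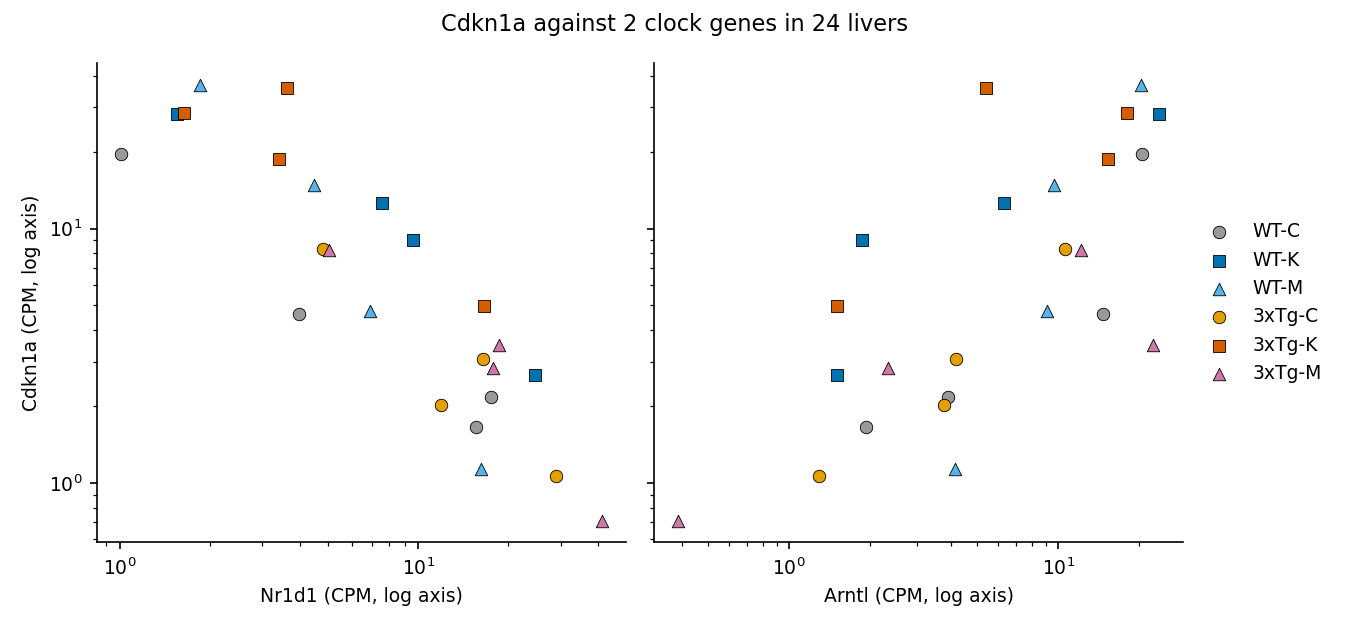
Cdkn1a against Nr1d1 and against Arntl in the 24 livers, all in CPM on log axes; each point is 1 liver, marked by group. Cdkn1a is high where Nr1d1 is low and where Arntl is high, in livers of both genotypes.

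The other genes of these pathways were taken from 5 lists. Averaged over diets, of 36 tested other mitosis genes 6 were higher in 3xTg-AD and 1 was lower, where 9.19% of all genes changed, and 32 of 36 values were above 0. Cenpf, a kinetochore protein, was higher by 1.23 ± 0.26 (SE; adjusted p = 0.00357), Kif20a, a cytokinesis motor, by 0.79 ± 0.19 (SE; adjusted p = 0.00772) and Cdc25b, a phosphatase that activates Cdk1, by 0.69 ± 0.18 (SE; adjusted p = 0.0155). Pttg1, which encodes securin, was the gene that fell, by 1.72 ± 0.30 (adjusted p = 0.000384), and on control diet it was at 1.69 ± 0.155 CPM in 3xTg-C against 10.1 ± 3.26 in WT-C (mean ± SD). Of 40 tested other replication genes 3 rose and none fell, a share near that of all genes: Dbf4, the activator of the Cdc7 kinase, by 1.08 ± 0.17 (SE; adjusted p = 0.000141), Brca1 by 0.85 ± 0.17 (SE; adjusted p = 0.00194) and Slbp, the histone mRNA binding protein, by 0.35 ± 0.10 (SE; adjusted p = 0.0331). On KD the counts were 6 of 36 and 4 of 40, all higher in 3xTg-AD, where 8.49% of all genes changed, with Prc1 at 1.46 ± 0.41 (SE; adjusted p = 0.0286) and Nek2 at 1.51 ± 0.43 (SE; adjusted p = 0.0314).

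Among 22 tested genes of G1 control, 3 rose in 3xTg-AD averaged over diets, where 9.19% of all genes changed: Tfdp2, an E2F partner, by 0.42 ± 0.09 (SE; adjusted p = 0.00357), Lin9 by 0.58 ± 0.17 (SE; adjusted p = 0.0331) and E2f2 by 0.72 ± 0.22 (SE; adjusted p = 0.0413). Of 5 tested other CDK inhibitors, Cdkn2a rose by 2.07 ± 0.58 (SE; adjusted p = 0.0202), at 0.558 CPM in 3xTg-AD and 0.126 CPM in WT livers. WT livers alone would not have carried Cdkn2a through the filter on low counts. Its entry to the test therefore depended on the livers in which it is high. The p53 targets, which share their regulator with Cdkn1a, were at 1 higher and 1 lower of 21, a share near that of all genes. With KD against control diet, 3 of 21 p53 targets rose in 3xTg-AD livers, where 5.39% of all genes changed: Tnfrsf10b by 2.38 ± 0.57 (SE; adjusted p = 0.0158), Btg2 by 1.56 ± 0.40 (SE; adjusted p = 0.024) and Trp53inp1 by 0.89 ± 0.26 (SE; adjusted p = 0.0471). The level of Tnfrsf10b was low, at 0.740 CPM in 3xTg-K and 0.135 CPM in 3xTg-C. Rb1, the retinoblastoma gene, rose by 0.68 ± 0.16 (SE; adjusted p = 0.0137) in the same comparison. In WT livers the atypical repressor E2f8 rose by 1.61 ± 0.37 (SE; adjusted p = 0.0472) and the p53 target Bbc3 fell by 2.19 ± 0.47 (adjusted p = 0.0372).

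The 6 members that could not be tested all averaged below 0.4 CPM over the 24 livers. Cyclin B1 (Ccnb1) averaged 0.151 ± 0.123 CPM in WT and 0.323 ± 0.15 CPM in 3xTg-AD livers, and Bub1, the partner kinase of the checkpoint, 0.144 ± 0.121 and 0.337 ± 0.212. Foxm1, a factor that switches on mitotic genes, averaged 0.319 ± 0.189 and 0.382 ± 0.212 CPM, and Plk1, a kinase needed throughout mitosis, 0.155 ± 0.113 and 0.238 ± 0.222. Aurkb, the kinase of the chromosomal passenger complex, averaged 0.224 ± 0.132 and 0.414 ± 0.362 CPM, and Cdc20, the activator of the anaphase-promoting complex, 0.317 ± 0.215 and 0.394 ± 0.171. With no filter on low counts, where 28097 genes were fitted, none of the 6 was called in any of the 14 comparisons, and Bub1 on KD was at 2.12 (adjusted p = 0.0850) between the genotypes. In that fit the genotype difference averaged over diets was 1.04 ± 0.40 for Ccnb1, 1.03 ± 0.43 for Bub1 and 0.83 ± 0.40 for Aurkb (log2 ± SE). It was 0.21 ± 0.35 for Foxm1, 0.32 ± 0.52 for Plk1 and 0.36 ± 0.33 for Cdc20. At these low counts, not passing the test does not show that a gene was unchanged.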

How the data were processed

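RNA from 24 whole livers was sequenced from libraries of polyadenylated RNA. The values used are counts per gene as deposited, 1 column per liver. The submitters' processing notes name Trimmomatic, STAR and the mouse build GRCm38; whether the unique molecular identifiers in the adapters or the strand were used in counting is not given in the sources used here. Between 21.5% and 30.1% of each column lay in 4 entries that name no gene and was left out. Genes were kept by edgeR's filterByExpr, scaled by trimmed mean of M values (TMM) and fitted in 1 quasi-likelihood model of the 6 groups (edgeR 4.0.16, limma 3.58.1, R 4.3.3), with p-values adjusted over 13281 genes by the Benjamini-Hochberg method at 0.05. DESeq2 1.42.0, other scalings and filters, the compared groups alone, a replicate block, and leaving out libraries were alternatives. CPM are counts divided by the filtered library size times the TMM factor; exon lengths came from GENCODE vM21. The scripts were tested on simulated data.

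All 35 members were accounted for. Values per liver are given for members called in any comparison, for the 3 smallest unadjusted p-values in each diet comparison and in the averaged genotype comparison, and for Mki67, Top2a, Cdk1, Ccnd1 and Cdkn1a; of the lists, up to 4 called genes per comparison were eligible. The members and lists were chosen with earlier results of these data known. The clock genes, the nuclear RNAs, the clock covariate and the older quasi-likelihood fit were chosen after seeing the data. Each liver is a separate mouse, and precision is limited by 4 livers per group and, for members near 1 CPM, by about 10 counts per library. Floors cover counting error only.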

Additional observations from a re-analysis of the deposited data

Results flagged for a closer look

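In 126 groups of 4 livers, 9 had a liver whose gap to its nearest neighbour took up more of the group's range than Dixon's 95% limit; chance flags about 1 in 20 groups. In WT-K, replicate 4 stood above the others for 3 genes: Mcm2 at 7.62 CPM (others 1.92 to 2.42), Mcm5 at 8.41 CPM (others 2.01 to 2.99) and E2f1 at 1.94 CPM (others 0.280 to 0.548). In the same group Mki67 was at 5.24 CPM in replicate 3 (others 2.37 to 2.73). In WT-C, replicate 2 was low for Mcm2 at 1.94 CPM (others 9.11 to 10.1) and high for Cdkn1a at 19.7 CPM (others 1.65 to 4.62), and replicate 1 was low for Ccna2 at 0.390 CPM (others 0.811 to 0.895). In WT-M, replicate 3 was high for Rrm2 at 4.49 CPM (others 1.43 to 1.78) and replicate 4 low for Cdk1 at 0.549 CPM (others 0.981 to 1.04). WT-K replicate 4 and WT-M replicate 3 are among the 6 libraries with pancreas transcripts, whose part in these values was not tested.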

How the results depend on the processing

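Bub1b, Mki67 and Nusap1 were called higher in 3xTg-AD averaged over diets under every alternative run. Where the filter was used, the entry of Bub1b and Nusap1 to the test depended on 3xTg-AD livers. Counts of members called moved as follows, and the cause was not tested. With library size alone they were 3 for KD against control diet in 3xTg-AD, 16 for KD against MCT in 3xTg-AD, 19 for genotype on KD, 1 for KD averaged, 11 for genotype averaged and 1 for the difference between the KD responses. Without a filter they were 3 for KD against MCT in 3xTg-AD and 1 for KD averaged. With RLE size factors and with the older fit they were 5 for genotype averaged. With DESeq2 they were 3 for KD against MCT in 3xTg-AD, 9 for genotype on KD and 8 for genotype averaged. With the clock covariate Cdkn1a is left out here, because the clock genes were set beside it in the same livers before that fit. Apart from Cdkn1a, that fit called no member for KD in 3xTg-AD. It called Mcm4, Cdk1 and Mcm6 for KD against MCT in 3xTg-AD, and Ccnd2 and Rrm2 for KD averaged. The clock covariate gave 8 for genotype on KD and 5 for genotype averaged, of which Ccnd1 was lower. In the compared groups alone they were 1 for KD in 3xTg-AD, 0 for KD against MCT in 3xTg-AD, 2 for genotype on control diet (Mki67 and Rrm2), 3 for genotype on KD and 1 for KD averaged. Without the pancreas libraries 0 were called for KD against MCT in 3xTg-AD, genotype on KD and KD averaged. Without 3xTg-K replicates 2 and 3 together these 3 counts were 3, 3 and 0, and without WT-C replicates 3 and 4 together KD averaged gave 0. Genotype averaged gave 8 without the former 2 libraries and 5 without the latter 2. Leaving out 1 library gave 0 to 2 for KD averaged, 3 to 9 for genotype averaged, 1 to 9 for genotype on KD, 0 to 2 for KD in 3xTg-AD, 0 to 3 for KD against MCT in 3xTg-AD and 0 to 0 elsewhere. The summed set over 28 members was 121, 80.4, 91.9, 122, 138 and 91.7 CPM in WT-C, WT-K, WT-M, 3xTg-C, 3xTg-K and 3xTg-M. Over the 35 members without 1 liver it ran from 313 to 401, 257 to 294, 215 to 288, 278 to 325, 252 to 307 and 179.7 to 208 CPM. Averaged over diets, Top2a lost its genotype call with RLE size factors (adjusted p = 0.0502), the older fit (0.0534) and the clock covariate (0.0791), and Tpx2 with the clock covariate (0.0512). Replicate numbers were not taken to pair the livers: same-numbered deviations correlated at -0.505 to 0.438 (25 of 60 pairs over 0.1, against 39 of 180 pairs with other numbers), and 10 of 24 livers correlated best with their own number. With the replicate block, 0 members were called for KD against MCT in 3xTg-AD, 9 for genotype on KD and 5 for genotype averaged; Cdk1 (KD against MCT), Tpx2 and Top2a had adjusted p of 0.0517, 0.0505 and 0.0691.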
